A study of Mus musculus with 4 samples.

Results

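These are the genes of the ubiquitin conjugation machinery and of its cullin and anaphase-promoting complex ligases, measured in SW620 cells after the SUV39H1 inhibitor F5446. Members were taken by gene symbol: ubiquitin-activating (UBA) and ubiquitin-conjugating (UBE2) enzymes, cullins (CUL), SKP1, F-box proteins (FBXL, FBXO, FBXW and BTRC), subunits of the anaphase-promoting complex or cyclosome (APC/C: ANAPC genes, CDC16, CDC23, CDC26 and CDC27) and its coactivators CDC20 and FZR1. The symbols picked out 108 of the 14884 named genes on the array, and all 108 were tested. SKP2, RBX1 and UBE2C are covered by the symbols but had no named probe set and were not analysed here.

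SW620 is an established cell line derived from human colon cancer. The 4 arrays fall into 2 groups of 2: untreated cells, and cells given 50 nM F5446 for 2 days, a small molecule described as selective for SUV39H1, a histone H3 lysine methyltransferase. Whether untreated cells received a vehicle is not stated in the labels. All arrays are of this 1 line. No label says that the replicates were grown as separate cultures; the p-values then describe only the spread among these arrays, which may be technical. The sample records name mouse as the organism; the growth protocol and the probe annotation are human, and the data were read as human. The values are log2 signals of total RNA on single-colour arrays.

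Ubiquitin is passed along a relay. An activating enzyme (E1) loads it onto a conjugating enzyme (E2), and a ligase (E3) brings the loaded E2 to the protein to be tagged. Cullin ligases are built on a cullin scaffold that holds the E2 at one end and a substrate receptor at the other; in the SCF type, CUL1 and SKP1 carry an F-box protein. APC/C is a related, larger ligase that ends mitosis by marking cyclins and securin for destruction. It is switched on by CDC20 in mitosis and by FZR1, also called CDH1, afterwards, and is held back by FBXO5, also called EMI1.

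Rises and falls were about equally frequent across the members, but among the genes tied to the cell cycle 12 fell and 1 rose, while among the rest 15 fell and 29 rose. Of the 108, 30 were higher and 27 lower after F5446 in limma's moderated test (Benjamini-Hochberg over all 14884 genes, threshold 0.05) and 51 did not pass, with a median log2 difference of -0.01. Over all genes tested, 40.9% passed, 18.2% higher and 22.7% lower, with a median of -0.05. Of the members 52.8% passed, 27.8% higher and 25.0% lower. Few members are dim: 99 of the 108 had a mean signal at or above 4.43, the median over all probe sets, and of the 10242 genes at or above that limit 55.7% passed. The share of members that passed was thus close to that of genes above this limit. By size, 8 of the 108 members fell and 7 rose by at least 2-fold, against 7.32% and 5.4% of all genes. Among the 99 members at or above the 4.43 limit the counts were also 8 and 7. Among the 10242 genes there they were 1052 and 764. Both treated arrays lay above both controls in 40 of the 108 members and below them in 40, against 28.4% and 37.7% of all genes. At or above the 4.43 limit this held for 40 and 39 of the 99 members. Of the 10242 genes there, it held for 3541 and 4410. The balance depended on scaling: when the median over named genes was subtracted from each array, 37 members were higher and 21 lower. That centring moves the median difference of all genes from -0.05 to 0.08, and the split over all genes from 2714 higher and 3372 lower to 3420 and 2735.

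**Figure D1:**
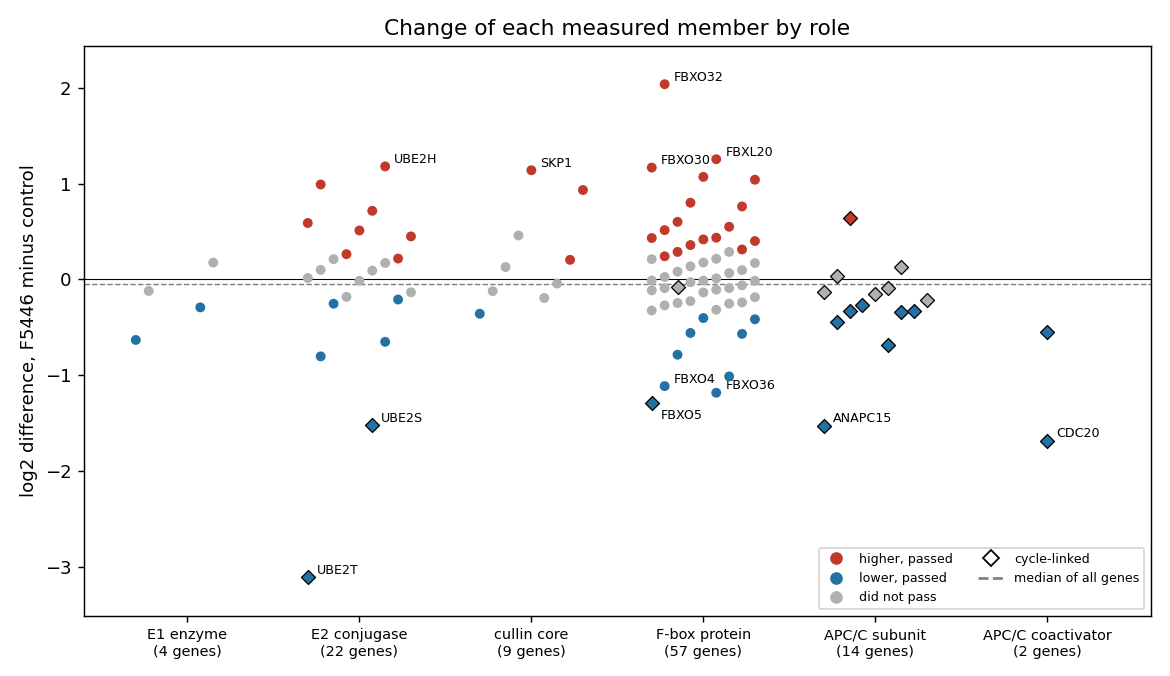
Log2 difference (F5446 minus control) of each of the 108 members, by role on the horizontal axis. Colours give the test result, black-edged diamonds mark cycle-linked members and the dashed line is the median of all genes, at -0.05. The lowest point is UBE2T at -3.11 and the highest is FBXO32 at 2.04.

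A list of cycle-linked members was set against the rest. It holds the APC/C subunits, CDC20, FZR1, the APC/C inhibitors FBXO5 and FBXO43, and UBE2C, UBE2S, UBE2T and SKP2; 20 of its 22 genes were measured. Of these 20, 12 fell, 1 rose and 7 did not pass, with a median log2 difference of -0.33. Of the other 88 members, 15 fell, 29 rose and 44 did not pass, with a median of 0.07. Beside the background of 22.7% lower and 18.2% higher, the cycle-linked members were 60.0% lower and 5.0% higher, and the other members 17.0% lower and 33.0% higher. Most members are above the 4.43 limit, and of all genes at or above it 30.6% were lower and 25.2% higher. Among members at or above it, the cycle-linked were 63.2% lower and 5.3% higher. The other members there were 17.5% lower and 36.25% higher. These shares are descriptions of genes chosen with earlier results known, and the difference between the lists was not tested. In bulk RNA, fewer cells of a kind, such as cells in mitosis, and less RNA per cell cannot be told apart. Centring left the cycle-linked members at 10 lower and 2 higher and the others at 11 lower and 35 higher; quantile normalization gave 13 lower and 1 higher, and 21 lower and 25 higher. Without F5446 replicate 1, or without F5446 replicate 2, the count of other members that fell was 9.

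**Figure D2:**
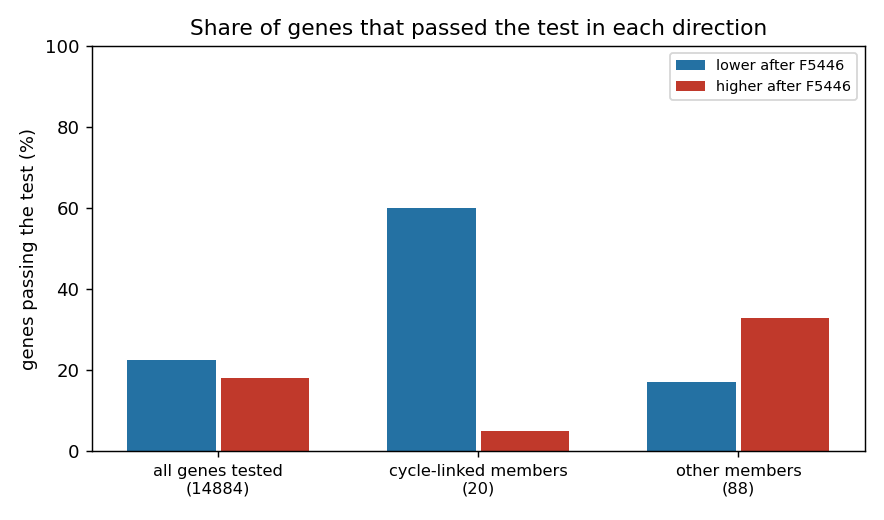
Share of genes (percent, vertical axis) that passed the test lower (blue) or higher (red) after F5446, for all 14884 genes, the 20 cycle-linked members and the 88 other members. Of the cycle-linked members 60.0% were lower, against 22.7% of all genes. Of the other members 33.0% were higher, against 18.2%. Of all genes at or above the 4.43 limit, not drawn here, 30.6% were lower and 25.2% higher.

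Of 6 cycle-linked members whose transcripts are known to rise and fall with the cell cycle, 4 were measured (UBE2T, CDC20, UBE2S and FBXO5), and these 4 fell. UBE2T, the E2 that works with the Fanconi anaemia ligase on damaged DNA, had log2 signals of 9.46 and 9.52 on the control arrays and 6.40 and 6.36 on the F5446 arrays. The groups lie far apart and the arrays within each are nearly equal; the fall was 8.66-fold (log2 difference -3.11 ± 0.08, SE, adjusted p = 2.37e-08), the largest change in either direction among the 108. CDC20, the mitotic activator of APC/C, read 10.6 and 10.4 in control cells and 8.87 and 8.76 in treated cells. Both treated arrays were well below both controls, a fall of 3.22-fold (-1.69 ± 0.07, SE, adjusted p = 2.07e-07).

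UBE2S, the E2 with which APC/C lengthens ubiquitin chains, had control signals of 7.05 and 6.75 and treated signals of 5.71 and 5.04. The treated arrays differ from each other more than in the other periodic genes, yet do not reach the controls; the fall was 2.88-fold (-1.53 ± 0.21, SE, adjusted p = 0.000312). FBXO5, the APC/C inhibitor that lets cyclins accumulate before mitosis, read 7.17 and 7.34 in control cells and 5.93 and 6.01 in treated cells. Its groups did not overlap either, with a fall of 2.45-fold (-1.29 ± 0.11, SE, adjusted p = 1.63e-05). The activator CDC20 and the inhibitor FBXO5 of the same ligase fell together. FBXO43, also called EMI2, the related inhibitor known from egg meiosis, was dim, at 2.38 and 2.48 in control cells and 2.30 and 2.40 in treated cells, and did not pass (adjusted p = 0.751).

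The APC/C itself changed by mostly small amounts. Of its 14 subunits, 7 fell, 1 rose and 6 did not pass. In 11 of the 14 both treated arrays lay below both controls, which held for 37.7% of all genes tested. It held for 4410 of the 10242 genes at or above the 4.43 limit, where all 14 subunits lie. Of all genes at or above the 4.43 limit, 30.6% fell and 25.2% rose. ANAPC15, a small subunit that helps release the mitotic checkpoint complex from APC/C, stood out with control signals of 8.66 and 8.33 and treated signals of 6.86 and 7.07. That gap exceeds the spread within either group, a fall of 2.88-fold (-1.53 ± 0.12, SE, adjusted p = 1.07e-05). ANAPC11, the RING subunit that binds the E2, had 7.27 and 7.5 in control cells and 6.65 and 6.74 in treated cells, and fell 1.61-fold (-0.68 ± 0.11, SE, adjusted p = 0.000847). FZR1, the coactivator of late mitosis and G1, read 7.97 and 7.87 against 7.38 and 7.37 and fell 1.46-fold (-0.55 ± 0.09, SE, adjusted p = 0.000701).

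Of the scaffold and repeat subunits, 5 fell by small amounts, CDC27 did not pass and CDC16 rose. The log2 difference of those that fell was -0.44 for ANAPC1, the largest scaffold subunit, -0.34 for ANAPC7 and -0.33 for CDC23, both from the family of helical-repeat subunits that dock the coactivator, -0.33 for ANAPC4 and -0.26 for ANAPC5. ANAPC1 and CDC27 have close copies elsewhere in the genome, so their signals may be shared. ANAPC4 missed the threshold whichever of the 4 arrays was left out (adjusted p from 0.065 to 0.15), and ANAPC5 without Ctrl replicate 1 (0.065), Ctrl replicate 2 (0.059) or F5446 replicate 2 (0.12). With centred arrays neither passed, and ANAPC16 passed as a second rise among the subunits.

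CDC16 is another helical-repeat subunit. Its signals were 9.93 and 9.98 in control cells and 10.6 and 10.6 in treated cells. Both treated arrays were higher, a rise of 1.56-fold (0.64 ± 0.06, SE, adjusted p = 1.63e-05), while its structural relatives CDC23 and ANAPC7 fell. The subunits that did not pass were CDC26, CDC27, ANAPC13, ANAPC10, the substrate-binding subunit, ANAPC2, the cullin-like catalytic subunit, and ANAPC16, with log2 differences between -0.21 and 0.13. A second probe set of CDC27, with a mean signal of 2.02, had a difference of 0.09, against -0.15 for the brighter probe set.

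**Figure D3:**
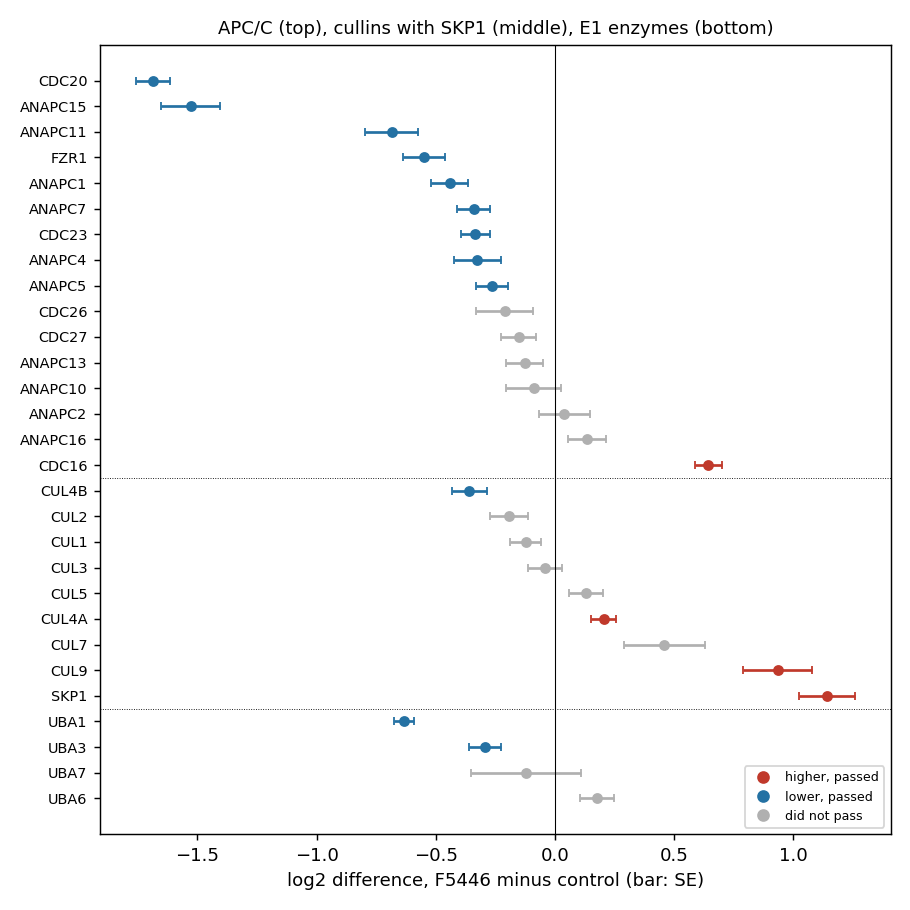
Log2 difference (F5446 minus control, horizontal axis) with its standard error from the fit for the 16 APC/C genes, the cullins with SKP1, and the E1 enzymes; blue and red points passed the test. CDC20 (-1.69) and ANAPC15 (-1.53) lie far to the left of the other APC/C genes and CDC16 (0.64) lies to the right.

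The genes APC/C acts on, and those of the checkpoint that restrains it, fell in most cases. These are not members, and their list was drawn up with earlier results known. Of 19 measured genes of 21 listed, 16 fell and 0 rose in limma's test, with a median of -2.4 for the log2 difference; at an unadjusted p under 0.05, 17 were lower and 1 higher, and 1 rose with centred arrays. The share that fell was 84.2%, against 22.7% of all genes and 30.6% of those at or above the 4.43 limit. CCNA2, which encodes cyclin A2, fell 14.9-fold, from control signals of 10.0 and 10.1 to 6.42 and 5.90. The kinase gene NEK2 fell 13.9-fold and CCNB2, which encodes cyclin B2, 12.9-fold. Securin (PTTG1) had a difference of -0.36 and did not pass (adjusted p = 0.0851); it is close in sequence to PTTG2, so the signals of these genes cannot be separated with certainty.

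Of the 4 E1 enzymes, UBA1 and UBA3 fell and the other 2 did not pass. Among all genes 22.7% fell, and 30.6% of those at or above the 4.43 limit. UBA1, which activates most of the cell's ubiquitin, read 12.1 and 12.1 in control cells and 11.5 and 11.4 in treated cells. Its groups were well separated, a fall of 1.55-fold (-0.63 ± 0.04, SE, adjusted p = 3.67e-06). UBA3, the catalytic subunit of the E1 for NEDD8, the ubiquitin-like protein that activates cullins, had 9.79 and 9.94 against 9.55 and 9.59 and fell 1.22-fold (-0.29 ± 0.07, SE, adjusted p = 0.00686). That call was lost without Ctrl replicate 2 (adjusted p = 0.059), without F5446 replicate 1 (0.082) and with centred arrays. UBA6, the other ubiquitin E1, had both treated arrays higher but did not pass (0.18 ± 0.07, SE, adjusted p = 0.0815); with centred arrays it did, as a rise (adjusted p = 0.0053), and also without F5446 replicate 1. UBA7, the E1 for ISG15, overlapped between groups (-0.12 ± 0.23, SE, adjusted p = 0.752).

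The NEDD8 route beyond UBA3 could be followed through a list of 21 other genes, of which 14 were measured. Of these, 7 fell and 3 rose, with a median log2 difference of -0.25 (-0.12 with centred arrays). The share that passed was 71.4%, against 40.9% of all genes and 55.7% of those at or above the 4.43 limit. Without F5446 replicate 1, and with all probe sets in the fit, 1 rose. NAE1, the partner of UBA3 in the NEDD8 E1, fell 1.67-fold, from 11.1 and 11.3 to 10.5 and 10.5. GPS1, a subunit of the COP9 signalosome that strips NEDD8 from cullins, fell 1.77-fold, and CAND1, which exchanges substrate receptors on cullins, 1.57-fold. Of 6 measured genes for ubiquitin and ubiquitin-like proteins, out of 12 listed, 3 fell and 1 rose, a share of 66.7% that passed. UFM1 rose 2.09-fold, URM1 fell 1.39-fold and SUMO3 fell 1.36-fold (adjusted p = 0.055 without F5446 replicate 2), while the ubiquitin gene UBB had a difference of -0.25 and did not pass (adjusted p = 0.139).

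The 22 E2 genes divided, with 8 higher, 6 lower and 8 that did not pass (6 higher and 7 lower after quantile normalization, 9 and 4 with centred arrays). The share that passed was 63.6%, against 40.9% of all genes. Of E2 genes at or above the 4.43 limit it was 66.7%, against 55.7% of all genes there. After UBE2T and UBE2S the falls were smaller. UBE2L6, the E2 for ISG15, had control signals of 5.34 and 5.15 and treated signals of 4.59 and 4.29, a fall of 1.75-fold (-0.80 ± 0.17, SE, adjusted p = 0.004). UBE2E3 read 6.5 and 6.90 against 6.17 and 5.93 and fell 1.57-fold (-0.65 ± 0.16, SE, adjusted p = 0.00814). UBE2G1 fell by 0.25 and UBE2V1 by 0.21 on the log2 scale. As the choice of named E2 genes required, the treated arrays of each lay below both controls. The gap was small in UBE2G1 and UBE2V1, and neither passed with centred arrays. UBE2V1 is the catalytically inactive partner of UBE2N in building chains for signalling and repair; UBE2N overlapped between groups (0.09 ± 0.19, SE), as did the closely related UBE2V2 (-0.01 ± 0.15, SE). UBE2V1 and UBE2V2, and UBE2N and the retrogene UBE2NL, resemble each other in sequence, and probes may not tell them apart.

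Of the E2 genes that rose, UBE2H, the E2 of the CTLH ligase, changed most. Its signals were 6.34 and 6.23 in control cells and 7.40 and 7.53 in treated cells, a rise of 2.27-fold (1.18 ± 0.11, SE, adjusted p = 1.91e-05). UBE2E2 read 6.35 and 6.58 against 7.34 and 7.57 and rose 1.99-fold (0.99 ± 0.12, SE, adjusted p = 0.000163). The related UBE2E2 and UBE2E3 therefore changed in opposite directions, and UBE2E1, the other member of their family, did not pass (0.21 ± 0.14, SE). UBE2G2, which serves the degradation of misfolded proteins of the endoplasmic reticulum, had 7.81 and 7.98 against 8.80 and 8.43 and rose 1.64-fold (0.72 ± 0.12, SE, adjusted p = 0.00126); its relative UBE2G1 fell. UBE2B, also called RAD6B, read 5.70 and 5.28 against 6.05 and 6.11 and rose 1.5-fold (0.59 ± 0.16, SE, adjusted p = 0.0155), while UBE2A, its close paralogue RAD6A, overlapped between groups (0.01 ± 0.08, SE).

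The other rises among E2 genes were small: 0.51 on the log2 scale for UBE2Q2, 0.45 for UBE2R2, an E2 that serves SCF ligases, 0.26 for UBE2O and 0.22 for UBE2Z, which is charged by UBA6. With all probe sets in the fit 5 rose and 4 fell. Leaving out arrays in turn ended several E2 calls: 5 rose and 3 fell without Ctrl replicate 2, 5 and 4 without F5446 replicate 1, and 6 and 3 without F5446 replicate 2. The UBE2B call was lost at adjusted p = 0.092 with Ctrl replicate 2 omitted and at 0.099 and 0.12 with either F5446 array omitted; UBE2E3 without Ctrl replicate 2 (0.080) or F5446 replicate 2 (0.11); UBE2L6 without F5446 replicate 2 (0.052); UBE2G1 without Ctrl replicate 2 (0.059) or F5446 replicate 1 (0.082). UBE2V1 and UBE2O were lost when any array other than Ctrl replicate 1 was left out (0.054 to 0.084, and 0.14 to 0.17), and UBE2Z when any other than F5446 replicate 2 was (0.097 to 0.22). UBE2O and UBE2Z were also lost after quantile normalization.

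Of the 8 cullins and SKP1, 3 rose, 1 fell and 5 did not pass. The share that passed was 44.4%, against 40.9% of all genes and 55.7% of those at or above the 4.43 limit. After quantile normalization 3 rose and 3 fell, and with centred arrays 5 rose and 1 fell, CUL5 and CUL7 being added. The scaffolds CUL1, CUL2, CUL3 and CUL5 did not pass, with log2 differences from -0.19 to 0.13. CUL4B fell 1.28-fold, from 8.80 and 8.87 to 8.44 and 8.51 (-0.36 ± 0.07, SE, adjusted p = 0.00319), and its paralogue CUL4A rose 1.15-fold, from 9.93 and 9.93 to 10.1 and 10.1 (0.20 ± 0.05, SE, adjusted p = 0.0136). The arrays of each gene were separated by group, in opposite directions, but the CUL4A call was lost whichever of the 4 arrays was left out (adjusted p from 0.053 to 0.091). CUL9, a large cullin known to bind p53, read 6.08 and 5.86 in control cells and 7.07 and 6.74 in treated cells, a rise of 1.91-fold (0.93 ± 0.14, SE, adjusted p = 0.000609). CUL7, its closest relative, had 6.31 and 5.81 against 6.62 and 6.43 and did not pass (0.46 ± 0.17, SE, adjusted p = 0.0586), though it did with centred arrays. SKP1, the adaptor between CUL1 and F-box proteins, had 5.58 and 5.56 against 6.76 and 6.66. The groups were wide apart, a rise of 2.20-fold (1.14 ± 0.12, SE, adjusted p = 4.57e-05).

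Cullin receptors other than F-box proteins also changed in both directions. Of 38 measured genes of 48 listed, 15 rose and 9 fell, with a median log2 difference of 0.01. The share that passed was 63.2%, against 40.9% of all genes and 55.7% of those at or above the 4.43 limit. DTL, the CUL4 receptor that removes licensing factors during S phase, fell 8.17-fold, from a mean of 10.96 to 7.95 and 7.90. WSB1, a receptor with a SOCS box, rose 7.56-fold, from 8.31 and 8.18 to 11.2 and 11.2, and ENC1, of the BTB-Kelch family, rose 2.95-fold. Of 8 measured E2 or E2-like genes with symbols outside those chosen, 3 rose and 3 fell; 1 rose whichever of the 4 arrays was left out, without the intensity trend and with all probe sets in the fit. BIRC6, a giant enzyme that carries both E2 and ligase functions, rose 1.83-fold, UBE2NL fell 1.97-fold and UEVLD fell 1.60-fold. In the main fit 75% of the 8 passed, against 40.9% of all genes.

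F-box proteins are the substrate receptors of SCF ligases. Of 57 measured, 18 rose, 9 fell and 30 did not pass, with a median log2 difference of 0.01 (-0.02 after quantile normalization, with 16 higher and 12 lower). The share that passed was 47.4%, against 40.9% of all genes, and 53.1% of those at or above the 4.43 limit, against 55.7%. Without the intensity trend 12 rose and 10 fell, and without F5446 replicate 1, 12 and 6. By class, 4 of 15 FBXL genes rose and 2 fell, 10 of 33 FBXO genes rose and 7 fell, and 4 of 9 FBXW genes (BTRC included) rose and 0 fell in limma's test, 0 also at an unadjusted p under 0.05. Among all genes 18.2% rose and 22.7% fell, and 25.2% and 30.6% of those at or above the limit. The FBXW gene with the lowest difference was FBXW10, at -0.32, a dim gene with a mean signal of 2.41 whose groups overlapped. Without Ctrl replicate 2 it passed as a fall (adjusted p = 0.016), but that fit rests on 1 control array, whose spread is taken from the treated pair. Over the alternatives the FBXL counts ran from 2 to 5 higher and 1 to 3 lower, and the FBXO counts from 6 to 11 higher and 5 to 9 lower.

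FBXO32, which encodes atrogin-1, known from muscle wasting, had the largest rise of all members. It read 5.02 and 4.84 in control cells and 6.99 and 6.96 in treated cells, a rise of 4.11-fold (2.04 ± 0.13, SE, adjusted p = 1.98e-06). FBXL20 had 7.44 and 7.31 against 8.69 and 8.57 and rose 2.39-fold (1.26 ± 0.09, SE, adjusted p = 4.24e-06). In both genes the arrays of a group lay close together. That the groups did not overlap was a condition for naming F-box genes among the largest rises. FBXO30 read 8.22 and 8.09 against 9.26 and 9.38 and rose 2.25-fold (1.17 ± 0.08, SE, adjusted p = 3.47e-06). FBXW8, the F-box partner of CUL7, had 8.02 and 7.95 against 9.04 and 9.07 and rose 2.10-fold (1.07 ± 0.07, SE, adjusted p = 3.32e-06). FBXO27, which recognises sugar-bearing proteins, rose 2.06-fold.

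The genes for beta-TrCP1 and beta-TrCP2 both rose. BTRC, which encodes beta-TrCP1, the SCF receptor of phosphorylated beta-catenin and of the NF-kB inhibitor, read 7.91 and 7.91 in control cells and 8.68 and 8.75 in treated cells, a rise of 1.74-fold (0.80 ± 0.07, SE, adjusted p = 2.54e-05). Its paralogue FBXW11, beta-TrCP2, had 6.93 and 6.89 against 7.45 and 7.40 and rose 1.43-fold (0.51 ± 0.09, SE, adjusted p = 0.00164). That their groups did not overlap was again a condition of the choice. The rises of FBXO28 (1.70-fold), FBXO11 (1.52-fold), the receptor of the repressor BCL6, and FBXO8 (1.46-fold) complete the 10 largest. FBXO8 missed the threshold without F5446 replicate 2 (adjusted p = 0.060).

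The other 8 F-box rises were between 0.24 and 0.44 on the log2 scale: FBXW2, FBXL12, FBXL4, FBXO42, FBXO7, FBXL5, FBXO10 and FBXO45. FBXL5 senses iron and controls the iron regulatory proteins; FBXO7 is mutated in a familial form of parkinsonism. Of these 8, FBXL5 and FBXO7 kept their calls whichever array was left out. FBXL4 was lost without F5446 replicate 1 (adjusted p = 0.062), and FBXL12, FBXO42 and FBXO10 when any array other than Ctrl replicate 1 was left out (up to 0.17, 0.11 and 0.31). FBXO45 was lost when any array other than Ctrl replicate 2 was left out (up to 0.17), and FBXW2 when any other than F5446 replicate 2 was (up to 0.31). FBXO7 was lost without the intensity trend of the fit (0.051) and FBXO10 and FBXW2 after quantile normalization.

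Behind FBXO5, the F-box falls were led by 3 FBXO genes. FBXO36 read 5.37 and 5.38 in control cells and 4.36 and 4.02 in treated cells, a fall of 2.27-fold (-1.18 ± 0.17, SE, adjusted p = 0.000372). Its treated signals lay under the 4.43 limit, where a fold change may understate the true one. FBXO4, known as a receptor for cyclin D1, had 6.92 and 6.63 against 5.69 and 5.63 and fell 2.17-fold (-1.12 ± 0.13, SE, adjusted p = 0.000122). FBXO16 read 6.92 and 6.82 against 5.92 and 5.79 and fell 2.02-fold (-1.01 ± 0.12, SE, adjusted p = 9.13e-05). Groups that did not overlap were a condition for naming these genes. FBXL13 fell 1.73-fold, FBXO2, a receptor for glycoproteins, 1.48-fold, FBXO48 1.47-fold, FBXO21 1.33-fold and FBXL17 1.32-fold. The mean signal of FBXL13, 4.24, was itself under the 4.43 limit, so it was not tested when dim genes were left out.

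FBXL17 missed the threshold whichever of the 4 arrays was left out (adjusted p from 0.052 to 0.16) and with centred arrays. FBXO2 missed it when any array other than Ctrl replicate 1 was left out (up to 0.096) and FBXO48 when any other than Ctrl replicate 2 was (up to 0.11). FBXO44, a relative of FBXO2, was just outside, at -0.33 ± 0.12 (SE, adjusted p = 0.0502). Of the 57 members that passed, 36 kept their call whichever of the 4 arrays was left out.

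**Figure D4:**
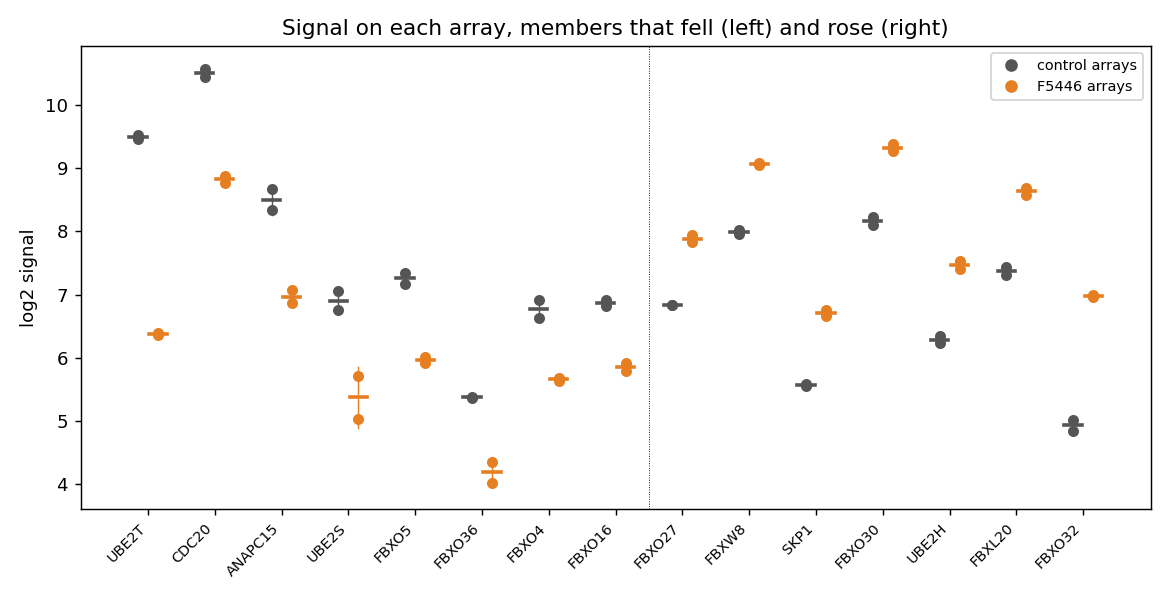
Log2 signal (vertical axis) on each control (grey) and F5446 (orange) array for the 8 members that fell and the 7 that rose by at least 2-fold; horizontal bars are group means and vertical lines the SD over 2 arrays. The genes shown were chosen by passing the test and by size, so the separation of their groups is not separate evidence. UBE2S has the widest spread between its treated arrays, 5.71 and 5.04.

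Across genes, which are not independent replicates, r was 0.994 between control arrays, 0.995 between treated arrays and 0.943 to 0.945 between groups. Of 9 measured epithelial markers, 8 had a mean signal at or above the 4.43 limit, and KRT20, at 3.46, did not. KRT18 had group means of 11.8 in control and 10.7 in treated cells. Of the 9, 5 fell and 2 rose. VIL1 fell most, 14.7-fold, from a group mean of 10.3 to 6.42, and CEACAM5 rose most, 3.80-fold. The summed linear signal of the 9 went from 8370 and 8401 in control cells to 4794 and 4844 in treated cells. Of 6 measured immune markers 1 rose, CD68 by 12.9-fold, and 2 fell, LYZ and CD4, with log2 differences of -1.79 and -1.50. CD8A, NKG7 and CD14 did not pass. The sum went from 543 and 565 to 3076 and 3014, a rise that came from CD68 and not from the immune markers as a set. Of 4 measured stromal and endothelial markers 1 fell, LUM, with PECAM1, DCN and VWF under the 4.43 limit in both groups, and the sum went from 163 and 163 to 54.2 and 54.3. The part of these shifts in the members' changes was not tested.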

How the data were processed

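The deposited table gives 1 log2 signal per probe set and array (53617 probe sets). Its scale is not stated and log2 was inferred: values run from 0.710 to 13.8, within the log2 range of a 16-bit scanner. Partek is named per the submitters' processing notes; background correction, normalization, probe set summary and any scaling between arrays, which would hide a change in total RNA, were not given in the sources used here. Array medians were 4.40 to 4.44. There are no detection calls, and for arrays their number limits the precision.

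The platform annotation gave 16098 probe sets 1 symbol, 0 several and 37519 none. Of the 14884 genes, 779 had several probe sets and the one with the highest mean was used. The test on the deposited log2 values used limma 3.58.1 in R 4.3.3 (lmFit, eBayes with intensity trend, group as the only term). It was two-sided, with Benjamini-Hochberg over all genes and threshold 0.05. On simulated data it recovered 58% of 100 genes changed by 1 log2 unit and 91% of 100 changed by 2. Of its 150 calls there, 1 was false. A member that did not pass may thus still have changed. Errors are SEs from this fit. The members and lists were chosen with earlier results of these data known.

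Named were all E1, cullin, SKP1, APC/C and cycle-linked members, the 10 largest rises and falls of E2 and F-box genes whose arrays did not overlap, the highest-signal gene of each kind, and the 3 largest changes per partner list; others were named after their values were seen. Alternatives were 2 rescalings, no trend, no dim genes, probe set means, all probe sets, a replicate block and each array left out. With an array left out, the lone array of its group is assumed to vary like the other group's 2. Promoter sequences and genomic positions were not used here.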

Additional observations from a re-analysis of the deposited data

How the results depend on the processing

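The counts of members that rose (30) and fell (27) stayed within 1.5 times under all 11 alternatives, as did those of cycle-linked members that fell (12, range 10 to 13) and of other members that rose (29, range 20 to 35). With centred arrays 2 cycle-linked members rose in place of 1, ANAPC16 being added. The other members that fell numbered 15, and 9 to 14 with an array left out. Of the 57 members that passed, 35 (17 lower, 18 higher) passed under every alternative that tested them, and none changed direction under centring or quantile normalization. Of the 57 calls, 51 were kept with centred arrays, 53 after quantile normalization, 44 without an intensity trend, 42 with all probe sets in the fit, 57 with probe set means and 40 to 49 with an array left out. Under 1 or more alternatives the log2 difference changed sign in 26 of the 108 members, none of which passed the test: in 15 with centred arrays, 3 after quantile normalization and 22 with an array left out. Of those named in the text, with centred arrays these were ANAPC10 (0.038), CUL1 (0.0038), CUL3 (0.083), FBXO43 (0.042), UBA7 (0.0054) and UBE2V2 (0.11), and after quantile normalization UBE2A (-0.071). With an array left out, the values of those named ran from -0.032 to 0.11 for ANAPC2, -0.11 to 0.020 for CUL3, -0.40 to 0.16 for UBA7, -0.17 to 0.35 for UBE2N, -0.20 to 0.17 for UBE2V2, -0.069 to 0.098 for UBE2A and -0.82 to 0.19 for FBXW10. No label says that equal replicate numbers pair the arrays, and their deviations correlated at 0.04; with the replicate number as a block 30 members rose and 27 fell, 56 of the 57 calls being kept, with 29 and 15 for the other members, 1 and 12 for the cycle-linked, and 2722 and 3342 over all genes. The cause of these changes was not tested.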
